A study of Homo sapiens with 9 samples.

Results

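The transcripts described here are those of 42 genes: ATF4, the transcription factor of the amino acid response, its partners and stress targets, and enzymes, amino acid transporters and cytosolic tRNA synthetases, many of which this response is known to control. They were chosen by name, with earlier results of these data known. A gene row of the deposited tables belongs to the set where its Ensembl identifier has a listed symbol in GENCODE 29, and all 42 were found among 58735 rows. The set holds 10 stress factors, 12 enzymes of amino acid and one-carbon metabolism, 8 transporters and 12 cytosolic tRNA synthetases. All 42 passed the filter on low counts and were among the 18088 genes tested.

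RNA was sequenced from HEK293T, a line derived from human embryonic kidney and expressing SV40 large T antigen, as poly-A stranded libraries. Every group was transfected for 36 h with 10 nM siRNA and Lipofectamine RNAiMAX, and 3 libraries were made with each of 3 siRNAs: against PHF12, against SUDS3, or a negative control. PHF12 and SUDS3 encode subunits of Sin3 histone deacetylase complexes. The labels name 1 siRNA per target in 1 cell line, so the loss of a target and other effects of its siRNA cannot be told apart. Nothing in them tells if replicates came from separate cultures, so a p here rests on the spread between these libraries, which may be technical.

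When amino acids run short or unfolded protein builds up, kinases phosphorylate the initiation factor eIF2, most translation slows, and the ATF4 messenger RNA is translated more through its upstream reading frames. ATF4 then pairs with C/EBP family proteins on DNA and activates genes that import amino acids, make serine, glycine, proline and asparagine, and charge tRNAs. ATF4 protein is therefore set largely by translation, which RNA counts do not measure.

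Library totals were 37962926 to 50946148 counts, and 96.1% of counts above 0 were multiples of 4, so the number of fragments read may be lower than the counts. The targeted transcripts were lower in their own knockdowns. PHF12 stood at 26.9 ± 2.08 CPM (counts per 1000000, scaled by TMM; mean ± SD of 3 libraries, as throughout) with its siRNA, against 49.9 ± 0.938 CPM with the control siRNA, and at 61.5 ± 1.73 CPM with the SUDS3 siRNA. SUDS3 stood at 22.1 ± 0.937 CPM with its siRNA, against 111.1 ± 3.31 CPM with the control siRNA, and at 81.0 ± 0.784 CPM with the PHF12 siRNA. SUDS3 thus also fell with the PHF12 siRNA (log2 fold change -0.46, SE 0.05, edgeR adjusted p = 6.83e-10). PHF12 rose with the SUDS3 siRNA (0.30, SE 0.06, edgeR adjusted p = 7.19e-05). The part of lower SUDS3 in changes shared by both knockdowns was not tested. HEK293T cells are known for neuron-like transcripts. All 9 listed markers of the line passed the filter on low counts, PAX2 and LHX1 with averages of at most 1.70 and 3.70 CPM in a group. With the PHF12 siRNA 3 rose and 3 fell (33.3% each), against 14.8% and 17.1% of all genes tested. With the SUDS3 siRNA 1 rose (11.1%) and 2 fell (22.2%), against 19.6% and 19.2%. KRT8 had the widest range of fold changes of the 9, with averages of 35.05 CPM with the PHF12 siRNA, 12.9 CPM with the SUDS3 siRNA and 19.7 CPM with the control siRNA. The neurofilament genes NEFM and NEFL did not move together, at 238 and 109 CPM with the PHF12 siRNA, 363 and 91.5 CPM with the SUDS3 siRNA, and 276 and 87.6 CPM with the control siRNA. PTPRC, PECAM1, CD3E and KRT5, markers of blood, endothelium, T cells and basal epithelium, did not pass the filter on low counts. ALB and DES averaged at most 0.162 and 0.284 CPM in a group, but GFAP averaged 2.29, 0.51 and 1.12 CPM and COL1A1 17.2, 20.7 and 11.7 CPM with the PHF12, SUDS3 and control siRNA. The part of these marker differences in the results below was not tested.

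ATF4 dimers with C/EBP proteins bind a composite site whose core is TGATGNAA, where N is any base. RefSeq promoter sequences (GRCh38.p14, the 250 bases before each annotated start) were matched for 36 of the 42 genes, and the core was searched on both strands. It lay in a promoter of 9 of the 36 genes (25%), against 500 of 15842 protein-coding genes in the same table (3.16%). Counted by promoter, it was in 10 of 60 (16.7%), against 1104 of 35116 promoters of the table (3.14%). Within the last 150 bases before the start it was in 6 of the 36 genes (16.7%), against 1.84% of protein-coding genes. The set was chosen as ATF4 targets, so these shares describe it. The 9 windows are shown because such cores are where ATF4 dimers are known to bind, and a match is a description, not a proven site. Each is read 5' to 3' on the strand of its gene, with the core in capitals, written as TTNCATCA where it lies on the other strand.
ATF3, chr1:212565206-212565233, gene on the plus strand: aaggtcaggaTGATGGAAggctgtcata
CHAC1, chr15:40953252-40953279, gene on the plus strand: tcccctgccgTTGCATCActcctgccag
CEBPG, chr19:33374061-33374088, gene on the plus strand: gcgcggcgtcTGATGCAAcctgccggca
ASNS, chr7:97872459-97872486, gene on the minus strand: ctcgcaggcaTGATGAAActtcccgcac
MTHFD1L, chr6:150866347-150866374, gene on the plus strand: ccgccggctcTGATGCAAtcgcgccggg
SLC1A5, chr19:46784894-46784921, gene on the minus strand: aggaagtggcTGATGCAAgctgtccagg
AARS, chr16:70289676-70289703, gene on the minus strand: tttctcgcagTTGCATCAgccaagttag
GARS, chr7:30594835-30594862, gene on the plus strand: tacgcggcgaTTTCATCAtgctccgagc
IARS, chr9:92293698-92293720, gene on the minus strand: tttcagcgcgTTGCATCAcctcc

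Read on its own strand, the core was TGATGCAA in 6 genes (CHAC1, CEBPG, MTHFD1L, SLC1A5, AARS and IARS). ASNS and GARS shared TGATGAAA, and ATF3 had TGATGGAA. The core began 13 bases before the start in IARS, 33 in GARS, 42 in CEBPG, 68 in ASNS, 97 in SLC1A5 and 129 in MTHFD1L. It lay farther out in AARS (187 bases), ATF3 (191) and CHAC1 (209). No core was found in these windows for the other 27 matched genes, ATF4, ATF5, PSAT1 and SLC7A1 among them, and a window without it says nothing of sites elsewhere.

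Levels were compared between genes as counts per exon length, scaled to 1000000 per library without TMM (recomputed TPM). The deposited TPM values were not used for this, because the gene lengths they imply had a Spearman rank correlation of 0.006 with annotated exon length across 10673 genes. ATF4 was the most abundant of the 42 in each group, at 816 ± 2.68 recomputed TPM in PHF12 knockdown, 839.9 ± 13.6 in SUDS3 knockdown and 961 ± 22.6 in control libraries. In control libraries PSAT1 (495 ± 12.4 recomputed TPM), which makes phosphoserine, and SLC1A5 (334 ± 7.38), a glutamine transporter, came next. The 12 synthetases lay close together, 10 of them between 135 (LARS) and 295 (EPRS) recomputed TPM, with WARS at 101 and CARS at 28.2. The stress factors reached down to ATF5 at 20.9 ± 0.821 and CHAC1 at 15.8 ± 1.71 recomputed TPM. ASNS, asparagine synthetase, was the lowest of all at 2.3 ± 0.338 recomputed TPM in PHF12 knockdown, 2.32 ± 0.077 in SUDS3 knockdown and 2.84 ± 0.352 in control libraries, and its lowest count in a library was 116. ASNS shares its strand and locus with AC079781.5, which had 0.201, 0.208 and 0.152 CPM with the PHF12, SUDS3 and control siRNA. Whether reads of this locus were left out of both counts was not tested. MTHFD1L likewise overlaps AL133260.1 on its own strand, which had 0.518, 0.4685 and 0.564 CPM with the PHF12, SUDS3 and control siRNA.

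**Figure D1:**
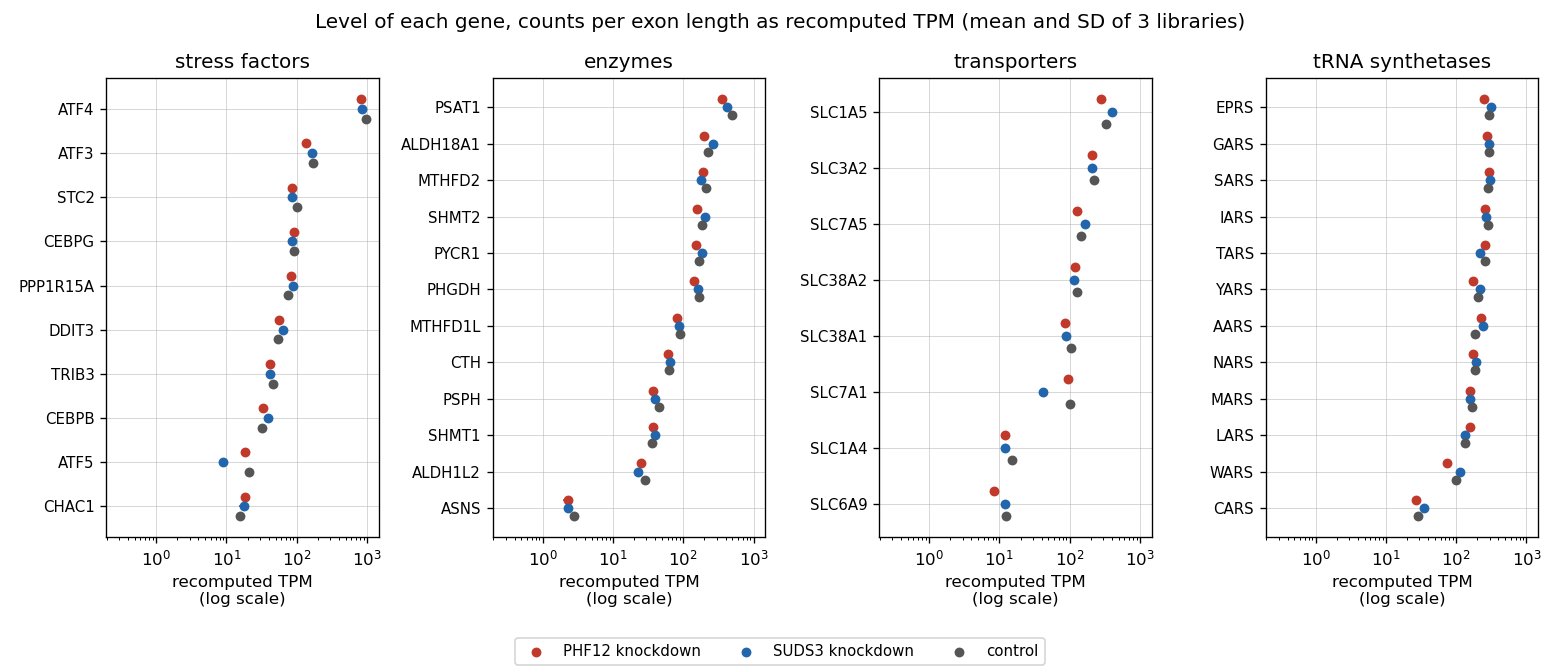
Counts per exon length, scaled to 1000000 per library (log scale), for the 42 genes in 4 classes, as mean and SD of 3 libraries for PHF12 knockdown, SUDS3 knockdown and control. ATF4 is highest in all groups and ASNS lowest, and the SUDS3 knockdown points of ATF5 and SLC7A1 lie well to the left of the other 2 groups.

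Set against control, the 42 transcripts were mostly level or lower with the PHF12 siRNA: 21 fell, 3 rose and 18 did not pass an edgeR adjusted p of 0.05. Across all 18088 genes tested, 17.1% fell and 14.8% rose. The PHF12 knockdown libraries lay wholly below control in 22 of the 42 and wholly above it in 6, against 21.9% and 20.2% of all genes. The median log2 fold change of the 42 genes was -0.14, against -0.0036 over all genes tested. By class, 8 of 12 enzymes and 6 of 8 transporters fell and none of either rose, while 3 of 10 stress factors and 4 of 12 synthetases fell. The changes were small, with a median size of 0.23 (log2) among those that passed, and none of the 42 reached a 2-fold change, against 2.0% of all genes tested. In bulk RNA, fewer cells of a type and less RNA per cell cannot be told apart. Of the calls, 2 rises and 18 falls held under each of 20 alternatives, which were 9 fits without 1 library and 11 other settings. Upper-quartile scaling gave 4 rises and 19 falls, and over all genes moved the share of rises among calls to 56.9%, against 46.4% with TMM.

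With the SUDS3 siRNA set against control in the same way, 20 of 42 fell, 10 rose and 12 did not pass, against 19.2% falls and 19.6% rises among all genes tested. The SUDS3 knockdown libraries lay wholly below control in 22 of the 42 and wholly above it in 12, against 23.4% and 23.2% of all genes. The median log2 fold change was -0.08, against -0.02 over all genes. By class, 5 of 10 stress factors fell and 3 rose, 6 of 12 enzymes fell and 2 rose, 5 of 8 transporters fell and 2 rose, and 4 of 12 synthetases fell and 3 rose. ATF5 and SLC7A1 fell by at least 2-fold (ATF5 to a lesser extent in limma on log2(TPM + 1), where its log2 fold change was -0.74), and 2.62% of all genes tested changed by as much in either direction. The median size of the changes that passed was 0.22 (log2). Only 4 of the rises and 11 of the falls held under each of the 20 alternatives. With upper-quartile scaling 6 rose and 20 fell, and without SUDS3 knockdown replicate 2 the falls numbered 13.

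**Figure D2:**
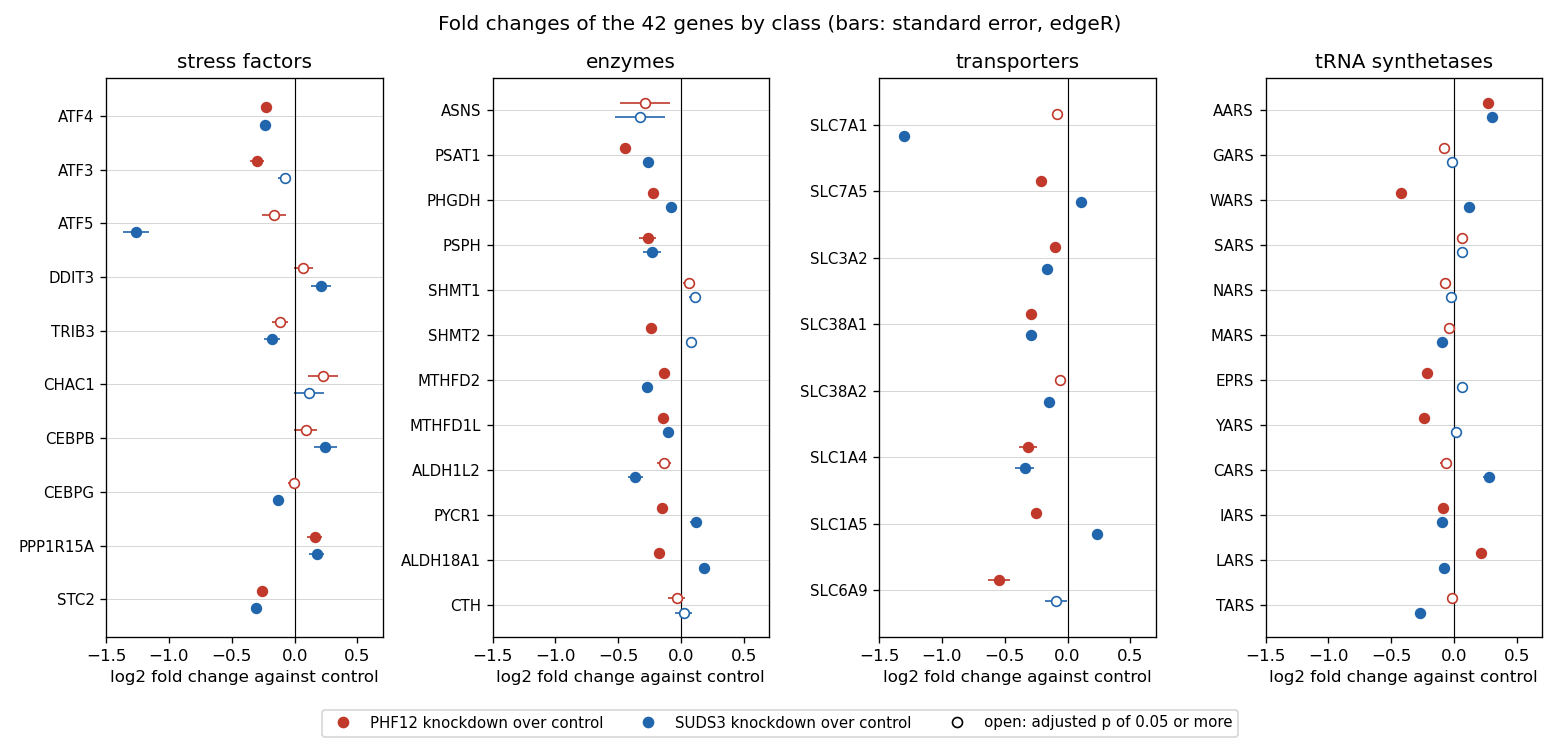
Log2 fold change against control (horizontal axis, with standard error) of each of the 42 genes, by class, for PHF12 knockdown and SUDS3 knockdown, with filled points where the edgeR adjusted p was under 0.05. Most PHF12 knockdown points of enzymes and transporters lie left of 0, and the SUDS3 knockdown points of ATF5 (-1.26) and SLC7A1 (-1.30) stand apart.

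Among the stress factors, ATF4 itself (ENSG00000128272, chr22:39519695-39522685, plus strand, GRCh38 as throughout) was lower in both knockdowns. It stood at 600.0, 597 and 596.5 CPM in PHF12 knockdown libraries, 587, 588 and 602 CPM in SUDS3 knockdown libraries and 695, 715 and 685 CPM in control libraries. Neither knockdown overlapped control, and the knockdowns overlapped each other. The log2 fold change was -0.22, SE 0.03, edgeR adjusted p = 1.56e-08 with the PHF12 siRNA and -0.24, SE 0.03, edgeR adjusted p = 4.56e-09 with the SUDS3 siRNA. ATF4 has named pseudogenes that can share its reads, as have 11 others of the 42, among them ASNS, PSAT1, PSPH, MTHFD2, SLC7A5, AARS, GARS, WARS, NARS and CARS.

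ATF5 (ENSG00000169136, chr19:49928702-49933935, plus strand), a relative of ATF4 whose translation is also raised by eIF2 phosphorylation, had the largest change of this class. It stood at 17.2, 14.7 and 15.8 CPM in PHF12 knockdown libraries, 7.15, 7.26 and 7.94 CPM in SUDS3 knockdown libraries and 17.4, 18.4 and 17.8 CPM in control libraries. All SUDS3 knockdown libraries were far below those of the other groups. The log2 fold change with the SUDS3 siRNA was -1.26, SE 0.10, edgeR adjusted p = 1.44e-12, while with the PHF12 siRNA it was -0.17, SE 0.10, edgeR adjusted p = 0.199. ATF5 overlaps NUP62 and IL4I1 on the opposite strand, and whether counting used strand is a point not given in the sources used here. NUP62 had 149, 122 and 140.0 CPM on average with the PHF12, SUDS3 and control siRNA.

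STC2, a secreted glycoprotein of the stress response, was lower in both knockdowns, at 157, 142.5 and 152 CPM in PHF12 knockdown libraries, 143, 146.5 and 147 CPM in SUDS3 knockdown libraries and 175, 179.6 and 186 CPM in control libraries. No knockdown library reached the control range. edgeR gave a log2 fold change of -0.26, SE 0.04, edgeR adjusted p = 1.53e-06 with the PHF12 siRNA and -0.31, SE 0.04, edgeR adjusted p = 4.44e-08 with the SUDS3 siRNA. ATF3, an early stress factor of the same family as ATF4, fell with the PHF12 siRNA, at 157.5, 164 and 156 CPM in PHF12 knockdown libraries, 169, 189 and 199 CPM in SUDS3 knockdown libraries and 179.9, 194 and 216 CPM in control libraries. The PHF12 knockdown libraries lay below the control range and the SUDS3 knockdown libraries overlapped it. On the log2 scale the change was -0.30, SE 0.05, edgeR adjusted p = 8.52e-05 with the PHF12 siRNA and -0.08, SE 0.05, edgeR adjusted p = 0.268 with the SUDS3 siRNA, which passed without control replicate 1 or SUDS3 knockdown replicate 3 (edgeR adjusted p down to 0.0266).

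The other 6 stress factors changed little. PPP1R15A, which recruits a phosphatase to eIF2 and ends the response, averaged 74.9 ± 2.22 CPM with the PHF12 siRNA, 75.8 ± 8.58 CPM with the SUDS3 siRNA and 67 ± 4.9 CPM with the control siRNA, and rose by 0.16 (SE 0.06) and 0.18 (SE 0.06) on the log2 scale. DDIT3, which encodes the death-linked factor CHOP, and CEBPB, a dimer partner of ATF4, rose with the SUDS3 siRNA by 0.21 (SE 0.08) and 0.24 (SE 0.09), with edgeR adjusted p of 0.0288 and 0.0337. DDIT3 overlaps MARS on the opposite strand. CEBPG, another partner, and TRIB3, a pseudokinase that restrains ATF4, fell with the SUDS3 siRNA to 108 ± 4.69 and 40.5 ± 0.169 CPM, against 118 ± 6.05 and 46 ± 4.33 CPM with the control siRNA. CHAC1, which breaks down glutathione, averaged 11 ± 0.562 CPM with the PHF12 siRNA, 10.2 ± 1.59 CPM with the SUDS3 siRNA and 9.43 ± 0.939 CPM with the control siRNA and did not pass. Several of these calls hung on single libraries. The PPP1R15A rise with the PHF12 siRNA was lost without control replicate 1 or 2 and without PHF12 knockdown replicate 2 or 3 (edgeR adjusted p up to 0.201), and that with the SUDS3 siRNA without control replicate 1 or 2 and without SUDS3 knockdown replicate 3 (up to 0.315). The DDIT3 rise was lost without control replicate 2 and without SUDS3 knockdown replicate 2 or 3 (up to 0.106), and the CEBPB rise without control replicate 1 or 2 and without SUDS3 knockdown replicate 2 or 3 (up to 0.142). The falls of CEBPG and TRIB3 were lost without control replicate 2 or 3 and without SUDS3 knockdown replicate 1, and that of TRIB3 also without SUDS3 knockdown replicate 2 (edgeR adjusted p up to 0.118 and 0.218). TRIB3 passed as a fall with the PHF12 siRNA without control replicate 1 (edgeR adjusted p = 0.0413).

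Serine is made from a glycolytic intermediate in turn by PHGDH, PSAT1 and PSPH, and all 3 transcripts fell in both knockdowns. PSAT1 (ENSG00000135069, chr9:78297143-78330093, plus strand) had the largest fall of the enzymes with the PHF12 siRNA, at 219, 235.5 and 233 CPM in PHF12 knockdown libraries, 266, 259.7 and 255 CPM in SUDS3 knockdown libraries and 309, 314 and 315 CPM in control libraries. The 3 groups did not overlap, with PHF12 knockdown lowest and control highest. Its log2 fold change was -0.45, SE 0.03, edgeR adjusted p = 9.4e-14 with the PHF12 siRNA and -0.27, SE 0.03, edgeR adjusted p = 2.72e-08 with the SUDS3 siRNA. PHGDH stood at 389, 374 and 384 CPM in PHF12 knockdown libraries, 422, 426.5 and 422 CPM in SUDS3 knockdown libraries and 456, 454 and 431 CPM in control libraries. PHF12 knockdown was lowest in each library, and the SUDS3 knockdown libraries lay just under the control range. The test gave a log2 fold change of -0.23, SE 0.03, edgeR adjusted p = 9.19e-08 with the PHF12 siRNA and -0.08, SE 0.03, edgeR adjusted p = 0.0332 with the SUDS3 siRNA. The SUDS3 call was lost without control replicate 1 or 2 or without any of the 3 SUDS3 knockdown libraries (edgeR adjusted p up to 0.148). PSPH averaged 30.4 ± 2.53 CPM with the PHF12 siRNA, 31.2 ± 1.81 CPM with the SUDS3 siRNA and 36.6 ± 1.51 CPM with the control siRNA, with log2 fold changes of -0.27 (SE 0.07) and -0.23 (SE 0.07), and its SUDS3 call ended without SUDS3 knockdown replicate 2 (edgeR adjusted p = 0.0702).

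Serine then yields glycine and one-carbon units through SHMT2, MTHFD2 and MTHFD1L in mitochondria and SHMT1 in the cytosol. SHMT2 was lower in PHF12 knockdown, at 225, 218 and 224 CPM in PHF12 knockdown libraries, 275, 282 and 273.5 CPM in SUDS3 knockdown libraries and 262, 273 and 253 CPM in control libraries. PHF12 knockdown lay below both other groups, and SUDS3 knockdown lay just above the control range. This was a log2 fold change of -0.24, SE 0.03, edgeR adjusted p = 2.95e-07 with the PHF12 siRNA and 0.08, SE 0.03, edgeR adjusted p = 0.0652 with the SUDS3 siRNA, which passed as a rise without control replicate 2 (edgeR adjusted p = 0.0283) and under 5 of 11 other settings (RLE scaling, library totals, DESeq2 and both limma fits, adjusted p down to 0.0136). MTHFD2 fell in both, at 262.5, 276 and 266 CPM in PHF12 knockdown libraries, 241, 233 and 258 CPM in SUDS3 knockdown libraries and 298, 288 and 298 CPM in control libraries. SUDS3 knockdown was lowest and control highest, with no overlap. Its log2 fold change was -0.14, SE 0.03, edgeR adjusted p = 0.00173 with the PHF12 siRNA and -0.27, SE 0.03, edgeR adjusted p = 5.84e-08 with the SUDS3 siRNA.

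ALDH1L2, which oxidises mitochondrial formyl-folate, fell with the SUDS3 siRNA, at 63.4, 64.1 and 62.3 CPM in PHF12 knockdown libraries, 50.5, 55.3 and 56.4 CPM in SUDS3 knockdown libraries and 68.1, 63 and 77.8 CPM in control libraries. SUDS3 knockdown lay below the control range, and PHF12 knockdown overlapped it. The change on the log2 scale was -0.36, SE 0.06, edgeR adjusted p = 6.23e-06 with the SUDS3 siRNA and -0.14, SE 0.06, edgeR adjusted p = 0.0792 with the PHF12 siRNA, which passed without control replicate 2 (edgeR adjusted p = 0.0142). MTHFD1L fell in both, with log2 fold changes of -0.15 (SE 0.04) with the PHF12 siRNA and -0.10 (SE 0.04) with the SUDS3 siRNA, and the SUDS3 call was lost without control replicate 1 or 2 or any SUDS3 knockdown library (edgeR adjusted p up to 0.161). SHMT1 averaged 78.7 ± 3.42 CPM with the PHF12 siRNA, 81.2 ± 1.99 CPM with the SUDS3 siRNA and 75.4 ± 2.84 CPM with the control siRNA and did not pass. It passed as a rise with the SUDS3 siRNA without control replicate 1 or SUDS3 knockdown replicate 2 (edgeR adjusted p down to 0.0459), and under library totals and DESeq2 (adjusted p down to 0.0231).

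The proline enzymes moved in opposite directions in the knockdowns. ALDH18A1, which opens proline synthesis from glutamate, stood at 217, 220.3 and 223 CPM in PHF12 knockdown libraries, 282, 283 and 284 CPM in SUDS3 knockdown libraries and 247, 250 and 249 CPM in control libraries. The 3 groups were fully apart, with SUDS3 knockdown above control and PHF12 knockdown below it. The log2 fold change was -0.18, SE 0.03, edgeR adjusted p = 1.78e-05 with the PHF12 siRNA and 0.19, SE 0.03, edgeR adjusted p = 7.01e-06 with the SUDS3 siRNA. PYCR1, which closes the same route, averaged 126 ± 5.01 CPM with the PHF12 siRNA, 152 ± 1.41 CPM with the SUDS3 siRNA and 140.1 ± 10.1 CPM with the control siRNA, with log2 fold changes of -0.15, SE 0.04, edgeR adjusted p = 0.00649 and 0.12, SE 0.04, edgeR adjusted p = 0.0297. The PYCR1 fall was lost without control replicate 1 (edgeR adjusted p = 0.0782), and the rise without control replicate 3 or SUDS3 knockdown replicate 1 (up to 0.306). CTH, which makes cysteine from cystathionine, averaged 42.8 ± 2.61 CPM with the PHF12 siRNA, 44.6 ± 4.34 CPM with the SUDS3 siRNA and 44 ± 4.03 CPM with the control siRNA, and ASNS 2.99 ± 0.441 CPM with the PHF12 siRNA, 2.9 ± 0.108 CPM with the SUDS3 siRNA and 3.65 ± 0.404 CPM with the control siRNA. Neither passed in either knockdown, and the ASNS log2 fold changes of -0.29 (SE 0.20) and -0.33 (SE 0.20) had the largest errors of the 42.

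Among the transporters, SLC7A1 (ENSG00000139514, chr13:29509410-29595688, minus strand), the CAT1 carrier of arginine and lysine, showed the largest change of the whole set. It stood at 207, 211 and 211 CPM in PHF12 knockdown libraries, 86, 91.7 and 92.5 CPM in SUDS3 knockdown libraries and 220.2, 224 and 220.1 CPM in control libraries. The SUDS3 knockdown libraries stood far below all 6 others. edgeR gave a log2 fold change of -1.30, SE 0.04, edgeR adjusted p = 1.8e-25 with the SUDS3 siRNA, and -0.08, SE 0.04, edgeR adjusted p = 0.0771 with the PHF12 siRNA. Its 3' UTR of 5070 bases held the hexamer TACATT, described below, 4 times.

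SLC1A5 (ENSG00000105281, chr19:46774883-46788594, minus strand), the ASCT2 carrier of glutamine, moved in opposite directions. It stood at 276, 264 and 270.0 CPM in PHF12 knockdown libraries, 384, 375 and 374 CPM in SUDS3 knockdown libraries and 328, 327 and 309.5 CPM in control libraries. The groups did not overlap, with SUDS3 knockdown highest and PHF12 knockdown lowest. On the log2 scale the change was -0.25, SE 0.03, edgeR adjusted p = 3.85e-08 with the PHF12 siRNA and 0.23, SE 0.03, edgeR adjusted p = 1.49e-07 with the SUDS3 siRNA. SLC6A9, the GLYT1 glycine carrier, had the largest fall of the 42 with the PHF12 siRNA, at 13.6, 12.4 and 12.3 CPM in PHF12 knockdown libraries, 17.4, 17.2 and 17.9 CPM in SUDS3 knockdown libraries and 18.6, 19 and 18.4 CPM in control libraries. PHF12 knockdown lay well under the other groups. The test gave a log2 fold change of -0.55, SE 0.09, edgeR adjusted p = 5.86e-06 with the PHF12 siRNA and -0.09, SE 0.09, edgeR adjusted p = 0.452 with the SUDS3 siRNA.

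The neutral amino acid carriers SLC38A1 and SLC1A4 fell in both knockdowns. SLC38A1 stood at 243.5, 259 and 249 CPM in PHF12 knockdown libraries, 248, 244 and 261 CPM in SUDS3 knockdown libraries and 289, 300.2 and 331 CPM in control libraries, with control above both knockdowns in every library. Its log2 fold change was -0.29, SE 0.04, edgeR adjusted p = 1.05e-07 with the PHF12 siRNA and -0.29, SE 0.04, edgeR adjusted p = 1.23e-07 with the SUDS3 siRNA. SLC1A4 averaged 24.3 ± 0.297 CPM with the PHF12 siRNA, 23.8 ± 1.16 CPM with the SUDS3 siRNA and 30.2 ± 0.247 CPM with the control siRNA, with log2 fold changes of -0.31 (SE 0.07) and -0.34 (SE 0.07). SLC7A5 and SLC3A2 form the LAT1 exchanger. SLC7A5, the light chain, fell with the PHF12 siRNA (log2 fold change -0.21, SE 0.04) and rose with the SUDS3 siRNA (0.11, SE 0.04). SLC3A2, the heavy chain, fell in both (-0.10, SE 0.03 with the PHF12 siRNA and -0.16, SE 0.03 with the SUDS3 siRNA). The SLC7A5 rise was lost without control replicate 2 or SUDS3 knockdown replicate 1 (edgeR adjusted p up to 0.187), and the SLC3A2 fall with the PHF12 siRNA without control replicate 2 or 3 and without PHF12 knockdown replicate 1 (up to 0.133). SLC38A2, a further system A carrier, fell with the SUDS3 siRNA to 216 ± 11.7 CPM, against 239 ± 12.7 CPM with the control siRNA, a call lost without control replicate 3 or SUDS3 knockdown replicate 2 (edgeR adjusted p up to 0.0887).

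The tRNA synthetases are each named for the amino acid they attach. With the PHF12 siRNA 2 of the 12 rose (16.7%) and 4 fell (33.3%), against 14.8% and 17.1% of all genes tested. AARS (ENSG00000090861, chr16:70252295-70289543, minus strand), the alanine enzyme, rose in both knockdowns, at 302, 292 and 291 CPM in PHF12 knockdown libraries, 306.5, 299 and 299.6 CPM in SUDS3 knockdown libraries and 252, 247 and 233 CPM in control libraries. No control library reached the range of either knockdown. This was a log2 fold change of 0.27, SE 0.03, edgeR adjusted p = 1.71e-08 with the PHF12 siRNA and 0.30, SE 0.03, edgeR adjusted p = 1.51e-09 with the SUDS3 siRNA.

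WARS (ENSG00000140105, chr14:100333788-100376805, minus strand), the tryptophan enzyme, stood at 139, 138 and 138 CPM in PHF12 knockdown libraries, 205, 196.5 and 201 CPM in SUDS3 knockdown libraries and 180.4, 184 and 189.8 CPM in control libraries. PHF12 knockdown lay far below control, and SUDS3 knockdown lay above it. The change on the log2 scale was -0.42, SE 0.04, edgeR adjusted p = 4.3e-12 with the PHF12 siRNA and 0.12, SE 0.04, edgeR adjusted p = 0.00634 with the SUDS3 siRNA, and the rise ended without SUDS3 knockdown replicate 1 (edgeR adjusted p = 0.0527). LARS, the leucine enzyme, went the other way, at 368, 375 and 362 CPM in PHF12 knockdown libraries, 295, 298 and 308 CPM in SUDS3 knockdown libraries and 315, 316.5 and 322 CPM in control libraries. PHF12 knockdown was highest and SUDS3 knockdown lay under the control range. The log2 fold change was 0.21, SE 0.03, edgeR adjusted p = 4.82e-07 with the PHF12 siRNA and -0.08, SE 0.03, edgeR adjusted p = 0.032 with the SUDS3 siRNA, which was lost without control replicate 2 or 3 and without SUDS3 knockdown replicate 1 or 2 (edgeR adjusted p up to 0.18).

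EPRS, which charges both glutamate and proline tRNAs, and YARS, the tyrosine enzyme, fell with the PHF12 siRNA, with log2 fold changes of -0.21 (SE 0.03) and -0.24 (SE 0.03). With the SUDS3 siRNA their log2 fold changes were 0.06 (SE 0.03) and 0.01 (SE 0.03), and EPRS passed as a rise without control replicate 3 or SUDS3 knockdown replicate 2 (edgeR adjusted p down to 0.0304). CARS, the cysteine enzyme, and TARS, the threonine enzyme, changed with the SUDS3 siRNA. CARS stood at 74.1, 77.6 and 83.7 CPM in PHF12 knockdown libraries, 98, 98.1 and 103 CPM in SUDS3 knockdown libraries and 83.2, 83.7 and 79 CPM in control libraries. SUDS3 knockdown was above all other libraries, with a log2 fold change of 0.28, SE 0.05, edgeR adjusted p = 9.27e-06. TARS stood at 423, 427 and 424 CPM in PHF12 knockdown libraries, 346, 342 and 380.5 CPM in SUDS3 knockdown libraries and 408, 429.9 and 454 CPM in control libraries. SUDS3 knockdown was below all other libraries, with a log2 fold change of -0.27, SE 0.04, edgeR adjusted p = 9.51e-08.

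IARS, the isoleucine enzyme, fell slightly in both knockdowns, with log2 fold changes of -0.09 (SE 0.03) and -0.10 (SE 0.03). These calls were lost without PHF12 knockdown replicate 1 and without SUDS3 knockdown replicate 2 (edgeR adjusted p = 0.06 and 0.0658). MARS, the methionine enzyme, fell with the SUDS3 siRNA (log2 fold change -0.10, SE 0.03), a call lost without SUDS3 knockdown replicate 1 (edgeR adjusted p = 0.0547). GARS, SARS and NARS, the glycine, serine and asparagine enzymes, had log2 fold changes between -0.08 and 0.07 in both knockdowns and did not pass. GARS passed as a fall with the PHF12 siRNA without control replicate 1 or PHF12 knockdown replicate 2 (edgeR adjusted p down to 0.0256) and with the replicate block. SARS passed as a rise with the PHF12 siRNA under upper-quartile scaling and DESeq2 (adjusted p down to 0.00893), and with the SUDS3 siRNA under library totals and DESeq2 (adjusted p down to 0.0236). EPRS passed as a rise with the SUDS3 siRNA under library totals.

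Settings other than a left-out library also ended calls. With the PHF12 siRNA, the PPP1R15A rise and the falls of PYCR1, SLC3A2 and IARS did not pass in either limma fit on deposited TPM (limma adjusted p up to 0.185 for PPP1R15A), and those of SLC3A2 and IARS did not pass under upper-quartile scaling either. With the SUDS3 siRNA, limma on log2(TPM + 0.1) ended 11 calls, the rises of PPP1R15A, CEBPB, PYCR1 and SLC7A5 and the falls of TRIB3, CEBPG, PHGDH, SLC38A2, MARS, IARS and LARS (limma adjusted p up to 0.195 for PHGDH). The falls of PHGDH, MTHFD1L and LARS were also lost under RLE scaling, library totals or no filter on low counts, and those of TRIB3 and CEBPG under library totals. The rises of DDIT3, CEBPB, PYCR1 and SLC7A5 were lost under upper-quartile scaling.

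**Figure D3:**
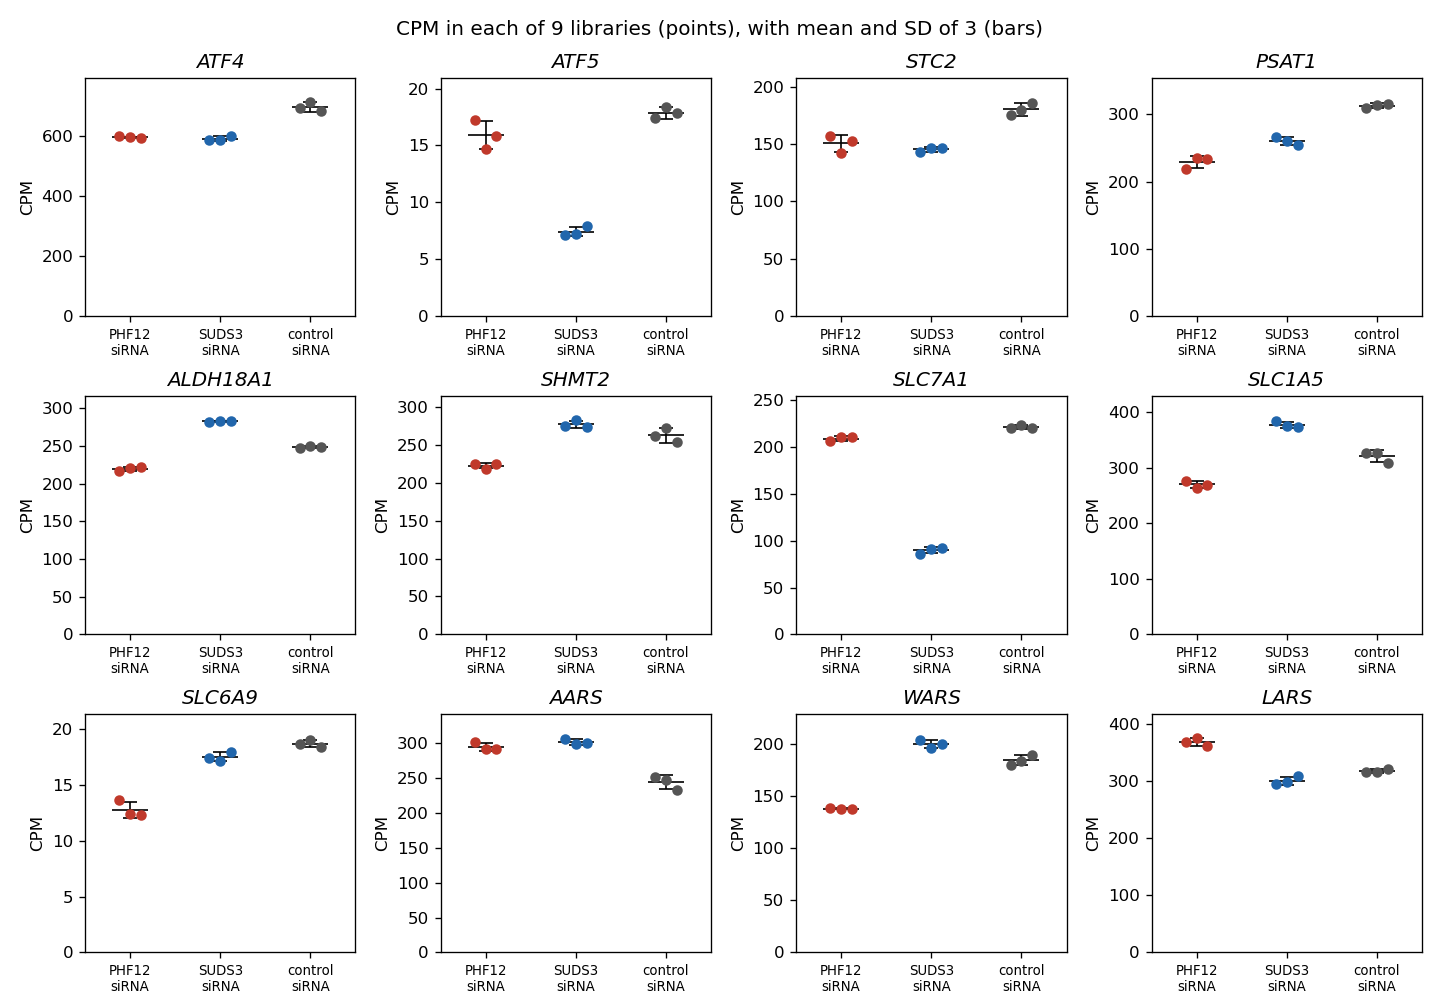
CPM (vertical axis, from 0) of 12 of the genes in each of the 9 libraries, with mean and SD of 3, for the PHF12, SUDS3 and control siRNA. ATF4 and STC2 are lower with both siRNAs, ATF5 and SLC7A1 with the SUDS3 siRNA, and ALDH18A1, SLC1A5 and WARS stand below control with the PHF12 siRNA and above it with the SUDS3 siRNA.

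The comparison of SUDS3 knockdown with PHF12 knockdown tests where the knockdowns differ. Of the 42 genes, 13 were higher in SUDS3 knockdown, 7 were lower and 22 did not pass, against 22.7% higher and 21.1% lower among all genes tested. SUDS3 knockdown lay wholly above PHF12 knockdown in 15 and wholly below it in 8, against 26.3% and 25.5% of all genes. The median log2 fold change was 0.03, against -0.0086 over all genes. The higher genes were 5 enzymes (ALDH18A1, SHMT2, PYCR1, PSAT1 and PHGDH), 3 transporters (SLC1A5, SLC6A9 and SLC7A5), 4 synthetases (WARS, CARS, EPRS and YARS) and ATF3. The lower ones were SLC7A1, ATF5, LARS, TARS, ALDH1L2, MTHFD2 and CEBPG.

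The widest differences upward were those of WARS (log2 fold change 0.54, SE 0.04, edgeR adjusted p = 2.48e-15), SLC1A5 (0.48, SE 0.03, edgeR adjusted p = 1.54e-15) and SLC6A9 (0.45, SE 0.09, edgeR adjusted p = 5.66e-05). In each, all 3 SUDS3 knockdown libraries were above all 3 PHF12 knockdown libraries. ALDH18A1 (0.36, SE 0.03), CARS (0.35, SE 0.05), SLC7A5 (0.32, SE 0.04), SHMT2 (0.32, SE 0.03), EPRS (0.28, SE 0.03), PYCR1 (0.27, SE 0.04) and YARS (0.25, SE 0.03) followed on the log2 scale. Downward, SLC7A1 had -1.22, SE 0.04, edgeR adjusted p = 5.36e-25 and ATF5 had -1.10, SE 0.10, edgeR adjusted p = 2.15e-11, and LARS (-0.29, SE 0.03), TARS (-0.25, SE 0.04) and ALDH1L2 (-0.23, SE 0.06) came next. SLC7A1 and ATF5 alone differed by at least 2-fold (ATF5 by -0.63 on the log2 scale in limma on log2(TPM + 1)), as did 5.08% of all genes tested.

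ATF4 did not pass in this comparison (log2 fold change -0.01, SE 0.03, edgeR adjusted p = 0.742), nor did AARS (0.03, SE 0.03, edgeR adjusted p = 0.464) or SLC38A1 (0.00, SE 0.04, edgeR adjusted p = 0.956). A p that misses the threshold does not show that the levels are the same. All 13 higher calls held under each of the 20 alternatives, and so did 6 of the 7 lower ones. CEBPG (-0.13, SE 0.04) did not, and was lost without PHF12 knockdown replicate 1 or SUDS3 knockdown replicate 1 (edgeR adjusted p up to 0.116), under library totals and in both limma fits. DDIT3 passed as higher in both limma fits and GARS as higher under library totals. SLC38A2 and SLC3A2 passed as lower without PHF12 knockdown replicate 1 or SUDS3 knockdown replicate 3 (edgeR adjusted p down to 0.0148 and 0.0419). SLC38A2 also passed as lower with a minimum count of 40, with counts divided by 4 and with the replicate block. Upper-quartile scaling gave 13 higher and 13 lower, the added ones being ATF4 (adjusted p = 0.0145), STC2, SLC3A2, SLC38A2, MARS and IARS. This scaling gave ATF4 a log2 fold change of -0.08, and over all genes it moved the share of higher calls to 41.2%, against 51.8% with TMM.

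**Figure D4:**
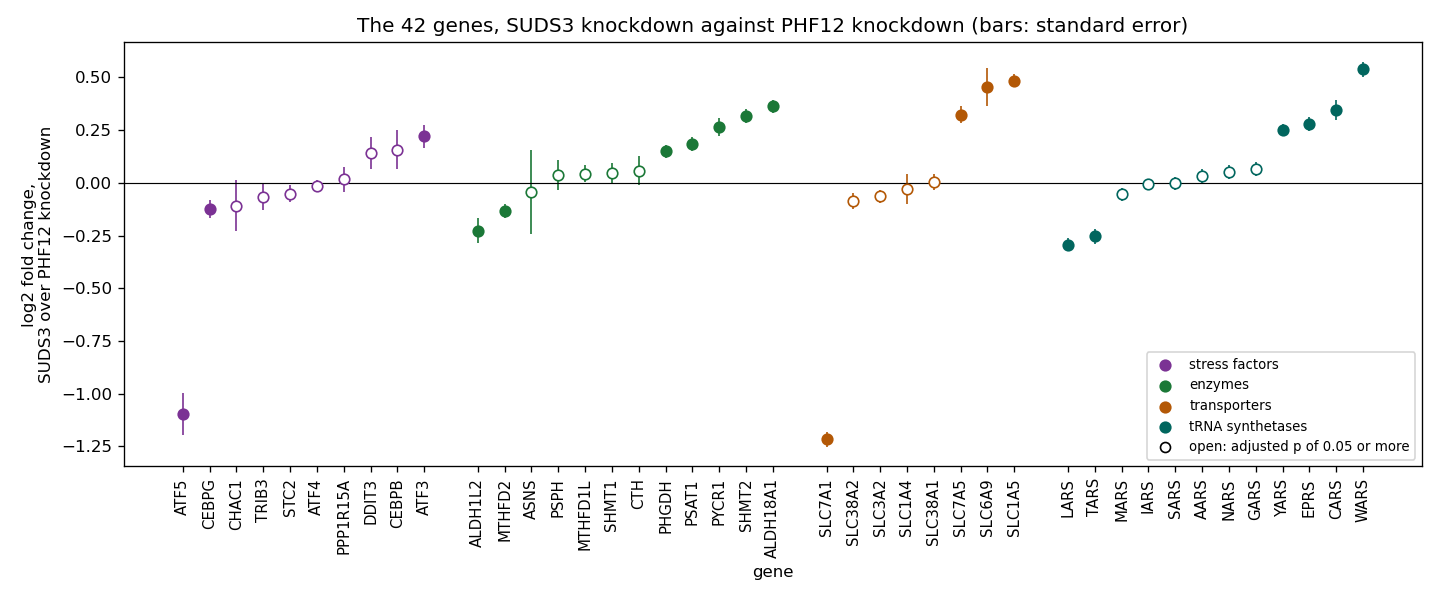
Log2 fold change of SUDS3 knockdown over PHF12 knockdown (vertical axis, with standard error) for the 42 genes, ordered within each class, with filled points where the edgeR adjusted p was under 0.05. SLC7A1 (-1.22) and ATF5 (-1.10) lie far below the rest, and WARS (0.54) and SLC1A5 (0.48) are highest.

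Added up by class, the stress factors came to 1379 ± 9.24 recomputed TPM in PHF12 knockdown, 1435 ± 48 in SUDS3 knockdown and 1568 ± 51.9 in control libraries. The enzymes came to 1443 ± 13.2 recomputed TPM in PHF12 knockdown, 1683 ± 7.84 in SUDS3 knockdown and 1722 ± 20 in control libraries. The transporters summed to 931 ± 17.4, 1046 ± 13.4 and 1064 ± 25.9 recomputed TPM in PHF12 knockdown, SUDS3 knockdown and control libraries, and the synthetases to 2322 ± 11.1, 2488 ± 65.8 and 2417 ± 61.5. All PHF12 knockdown libraries lay below all control libraries in each of the 4 classes, and the SUDS3 knockdown libraries did so for the stress factors and enzymes. Summed over the deposited TPM, which imply other gene lengths, the synthetases were higher in both knockdowns than in control libraries (2171 ± 21.8 TPM). They came to 2393 ± 24.3 TPM in PHF12 knockdown and 2356 ± 21.8 TPM in SUDS3 knockdown. The direction of the synthetase sum with the PHF12 siRNA thus depends on the lengths used. With the SUDS3 siRNA the mean lay above control in both sums, but in recomputed TPM the libraries overlapped (lowest 2442, against a highest control of 2466). These sums weigh the abundant genes most and, unlike CPM, are not scaled by TMM, so groups can be offset from each other. ATF4 was higher in SUDS3 than in PHF12 knockdown in recomputed TPM (839.9 and 815.9), but lower in CPM (592.5 and 597.8). The part of this offset in the sums was not tested.

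Genes with and without the promoter core were set side by side. With the PHF12 siRNA, 4 of the 9 genes with the core fell (44.4%) and 1 rose, against 13 of 27 matched genes without it (48.1%) and 1 rise. With the SUDS3 siRNA, 3 of 9 with the core fell (33.3%) and 2 rose (22.2%), against 14 of 27 without it (51.9%) and 7 rises (25.9%). Of all genes tested, 17.1% fell and 14.8% rose with the PHF12 siRNA, and 19.2% fell and 19.6% rose with the SUDS3 siRNA. The 9 include genes that rose in both knockdowns (AARS), fell in both (MTHFD1L and IARS) or did not pass in either (ASNS, CHAC1 and GARS).

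A small RNA can lower transcripts whose 3' UTR pairs with its seed. In earlier work on these data the hexamers AATCAC and TACATT were picked from the same fold changes as most tied to falls with the PHF12 and the SUDS3 siRNA, so their presence is a description and tests nothing, with siRNA sequences not given in the sources used here. AATCAC was in the annotated 3' UTR of 7 of the 42 genes (16.7%), against 30.7% of 13770 tested protein-coding genes. With the PHF12 siRNA, 3 of these 7 fell, against 18 of the 35 without the hexamer. Among all tested genes 38.2% of those with it and 13.6% of those without it fell.

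TACATT was in 11 of the 42 (26.2%), against 40.9% of tested genes. With the SUDS3 siRNA, 8 of the 11 fell and 2 rose, against 12 falls and 8 rises among the 31 without it. Among all tested genes 31.3% of those with it and 17.2% of those without it fell. The 8 were SLC7A1 (4 copies), STC2, SLC38A1 and SLC38A2 (2 each), and PSAT1, MTHFD2, ALDH1L2 and MARS (1 each). ATF4, ATF5, TARS and SLC1A4, which also fell with the SUDS3 siRNA, had no copy. The members' 3' UTRs were shorter, with a median of 879 bases against 1370 bases for tested genes.

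Upstream of ATF4 lie the eIF2 kinases, eIF2 and its exchange factor eIF2B. A list of 15 genes held these together with PPP1R15B, GCN1 and IMPACT. Of the 15, 5 rose (33.3%) and 3 fell (20%) with the PHF12 siRNA, against 14.8% and 17.1% of all genes tested. In SUDS3 knockdown 4 rose (26.7%) and 5 fell (33.3%), against 19.6% and 19.2%. PPP1R15B, the constant partner of the eIF2 phosphatase, rose with the PHF12 siRNA (log2 fold change 0.36, SE 0.04, edgeR adjusted p = 1.11e-09), as did EIF2S3 (0.24, SE 0.03), while EIF2S2 fell (-0.22, SE 0.04), both being subunits of eIF2. With the SUDS3 siRNA, the kinase EIF2AK2 fell (log2 fold change -0.36, SE 0.05, edgeR adjusted p = 1.22e-07), as did EIF2S3 (-0.22, SE 0.03), and EIF2B2 rose (0.30, SE 0.05). SUDS3 knockdown was below PHF12 knockdown in EIF2S3 (-0.46, SE 0.03), PPP1R15B (-0.46, SE 0.04) and EIF2AK2 (-0.39, SE 0.05).

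Among 16 other genes known to answer ATF4, 2 rose (12.5%) and 8 fell (50%) with the PHF12 siRNA, against 14.8% and 17.1% of all genes. In SUDS3 knockdown 3 rose (18.8%) and 4 fell (25%), near the 19.6% and 19.2% of all genes. SLC7A11, the cystine carrier, fell in both, with log2 fold changes of -0.80, SE 0.07, edgeR adjusted p = 6.49e-12 and -1.12, SE 0.07, edgeR adjusted p = 1.42e-15. DDIT4, an inhibitor of mTORC1 signalling, and SLC7A6 fell with the PHF12 siRNA (-0.37, SE 0.04, and -0.34, SE 0.04). GPT2, a mitochondrial alanine aminotransferase, and SESN2, a leucine sensor, rose with the SUDS3 siRNA (0.45, SE 0.05, and 0.32, SE 0.04). SLC7A6 and DDIT4 were higher in SUDS3 knockdown than in PHF12 knockdown (0.57, SE 0.04, and 0.37, SE 0.04), and SLC7A3, a relative of SLC7A1, was lower (-1.11, SE 0.13).

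The other 11 cytosolic synthetases and scaffold proteins of their complex gave 3 rises (27.3%) and 6 falls (54.5%) with the PHF12 siRNA, against 14.8% and 17.1% of all genes. They gave 5 rises and 5 falls (45.5% each) with the SUDS3 siRNA, against 19.6% and 19.2%. FARSB and KARS, of the phenylalanine and lysine enzymes, fell with the PHF12 siRNA (log2 fold change -0.46, SE 0.04, and -0.24, SE 0.03), and RARS, the arginine enzyme, rose (0.34, SE 0.03). DARS and the scaffold EEF1E1 fell with the SUDS3 siRNA (-0.27, SE 0.04, and -0.37, SE 0.06), and RARS rose (0.16, SE 0.03). KARS was higher in SUDS3 knockdown than in PHF12 knockdown (0.39, SE 0.03, edgeR adjusted p = 7.31e-12).

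The 17 mitochondrial synthetases gave 8 rises (47.1%) and 4 falls (23.5%) with the PHF12 siRNA, against 14.8% and 17.1% of all genes. They gave 9 rises (52.9%) and 4 falls (23.5%) with the SUDS3 siRNA, against 19.6% and 19.2%. Their median log2 fold change was 0.10 in each, against -0.14 and -0.08 for the 42 genes. NARS2, the mitochondrial asparagine enzyme, fell with the PHF12 siRNA (-0.89, SE 0.06, edgeR adjusted p = 4e-14), and TARS2 and AARS2 rose (0.28, SE 0.04, and 0.27, SE 0.05). MARS2, PARS2 and TARS2 rose with the SUDS3 siRNA (0.44, SE 0.08; 0.50, SE 0.09, and 0.19, SE 0.04). Whether the mitochondrial and cytosolic groups differ was not tested.

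Of 16 other tested one-carbon and folate genes, 9 fell (56.2%) and 1 rose (6.25%) with the PHF12 siRNA, with a median log2 fold change of -0.24, against 17.1% and 14.8% of all genes. In SUDS3 knockdown 5 fell (31.2%) and 4 rose (25%), with a median of -0.04, against 19.2% and 19.6%. GLDC, the glycine-cleaving enzyme, fell with the PHF12 siRNA (-0.84, SE 0.06, edgeR adjusted p = 2.81e-13) and rose with the SUDS3 siRNA (0.52, SE 0.06, edgeR adjusted p = 1.26e-08), a log2 difference of 1.36 (SE 0.06) between the knockdowns. SFXN1, a mitochondrial serine carrier, and MTR, methionine synthase, fell with the PHF12 siRNA (-0.30, SE 0.03, and -0.36, SE 0.04). TYMS, thymidylate synthase, and MTHFD1 fell with the SUDS3 siRNA (-0.27, SE 0.04, and -0.22, SE 0.03).

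The ATF6 and XBP1 branch answers unfolded protein through these factors. Of 12 listed genes, 8 fell (66.7%) and 1 rose (8.33%) with the PHF12 siRNA, against 17.1% and 14.8% of all genes. In SUDS3 knockdown 5 fell (41.7%) and 4 rose (33.3%), against 19.2% and 19.6%. The chaperones HYOU1 and HSPA5 and the factor XBP1 fell with the PHF12 siRNA (-0.43, SE 0.03; -0.28, SE 0.03, and -0.30, SE 0.03). PDIA4, MANF and HSPA5 fell with the SUDS3 siRNA (-0.30, SE 0.03; -0.32, SE 0.03, and -0.22, SE 0.03). Of the 12, 7 were higher in SUDS3 knockdown than in PHF12 knockdown and none was lower, against 22.7% and 21.1% of all genes, with HYOU1 at 0.39 (SE 0.03).

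**Figure D5:**
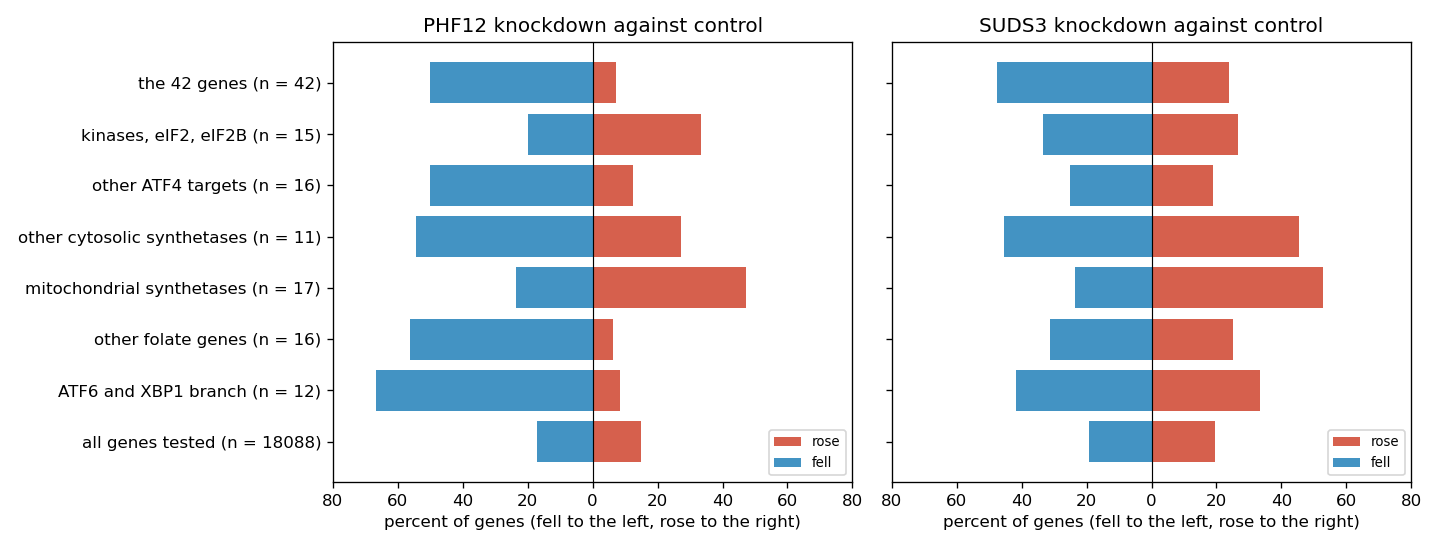
Percent of genes that rose (right) or fell (left) at an edgeR adjusted p under 0.05 with the PHF12 siRNA and the SUDS3 siRNA against control, for the 42 genes, 6 related lists and all genes tested. With the PHF12 siRNA the 42 genes and most lists show more falls than rises. These lists are other ATF4 targets, other cytosolic synthetases, other folate genes and the ATF6 and XBP1 branch. Among all genes tested 17.1% fell and 14.8% rose with this siRNA. The mitochondrial synthetases show more rises than falls in both comparisons.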

How the data were processed

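The authors deposited counts per gene and TPM values for 9 libraries. Per the submitters' processing notes the tools were Trimmomatic 0.36, HISAT2 2.1.0 and HTSeq, with build GRCh38. Counting had a strand setting not given in the sources used here. All 58735 identifiers matched GENCODE 29, which gave symbols, coordinates, exon lengths and 3' UTRs. The deposited TPM values, whose implied gene lengths did not follow the annotation, served for limma fits within genes (log2, pseudocounts 1 and 0.1). Their only other use was a sum over the synthetases, set beside the recomputed sum. Levels between genes were counts per exon length.

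The counts were analysed in edgeR 4.0.16 (R 4.3.3; filterByExpr with a minimum count of 10, TMM scaling, robust quasi-likelihood, a mean per group over all 9 libraries). F-tests of 3 contrasts were adjusted by Benjamini-Hochberg over 18088 genes, with 0.05 as threshold. CPM are TMM-scaled, and SE come from the F-statistic. Alternatives were other scalings, filters and tests (DESeq2 1.42.0, limma 3.58.1), counts divided by 4, a replicate block and each library left out. Members and lists were chosen with earlier results of these data known. All 42 members are named, and of other lists up to 3 passing genes of smallest p per contrast. Within groups no libraries were identical. The chi-square per degree of freedom was 1.38 to 2.21 on counts divided by 4, over genes with at least 20 in a pair of libraries. It was not computed on the counts as deposited.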

Additional observations from a re-analysis of the deposited data

How the results depend on the processing

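Over 42 genes, 3 comparisons and 20 alternatives, 2311 of 2520 values kept direction and side of the threshold, 101 lost the call, 40 gained one and 68 changed sign. None of the sign changes touched a call, and the largest value after one was 0.0868 (log2). With the replicate number as a block (replicate block), 3 genes rose and 22 fell with the PHF12 siRNA, 10 rose and 20 fell with the SUDS3 siRNA, and 13 were higher and 8 lower in SUDS3 knockdown than in PHF12 knockdown. Same-numbered libraries deviated together little (correlations -0.016 to 0.03, against -0.032 to 0.018 for other pairs). These correlations ran over all genes tested, where noise of low counts can hide a shared origin. They do not tell if the numbers pair the libraries. Counts over all 42 genes moved by more than 1.5 times in 4 cases. With upper-quartile scaling 6 genes rose with the SUDS3 siRNA and 13 were lower in SUDS3 than in PHF12 knockdown. For falls with the SUDS3 siRNA, limma on log2(TPM + 0.1) gave 13, and leaving out 1 library gave 13 to 20. Counts by class are not among these cases and moved too. Upper-quartile scaling ended the SUDS3 siRNA rises of DDIT3 and CEBPB (stress factors), PYCR1 (enzymes) and SLC7A5 (transporters). The cause of these moves was not tested. Values that changed sign, on the log2 scale, were as follows. For the PHF12 siRNA against control: CEBPG 0.0053 (RLE scaling), CEBPG 0.0325, CTH 0.0022 and TARS 0.0193 (upper-quartile scaling), CEBPG 0.0003 (no filter on low counts), CEBPG 0.0054 (DESeq2), CEBPG 0.001 (counts divided by 4), CEBPG 0.0023 (2 groups of the contrast only). For the SUDS3 siRNA against control: CTH -0.0078 and YARS -0.0147 (upper-quartile scaling), GARS 0.0068 and NARS 0.0031 (library totals only), GARS 0.0012 (limma on log2(TPM + 1)), GARS 0.0013 (limma on log2(TPM + 0.1)). For the SUDS3 against PHF12 siRNA: ATF4 0.0081, SARS 0.0178 and IARS 0.0138 (library totals only), ATF4 0.0, SARS 0.0095 and IARS 0.0057 (limma on log2(TPM + 1)), ATF4 0.0, SARS 0.0097 and IARS 0.0058 (limma on log2(TPM + 0.1)), PPP1R15A -0.0505, PSPH -0.03, SHMT1 -0.0206, MTHFD1L -0.0229, CTH -0.01, SLC38A1 -0.0634, AARS -0.0345, GARS -0.0023 and NARS -0.0147 (upper-quartile scaling), SLC38A1 -0.0004 (RLE scaling), SLC38A1 -0.0038 (minimum count of 40), SLC38A1 -0.0004 (DESeq2), SLC38A1 -0.0052 (counts divided by 4), SLC38A1 -0.0043 (2 groups of the contrast only). Leaving out 1 library, for the PHF12 siRNA against control: CEBPG -0.0466 to 0.0278, CTH -0.0893 to 0.0429 and TARS -0.0571 to 0.024. Leaving out 1 library, for the SUDS3 siRNA against control: CHAC1 -0.0182 to 0.1995, CTH -0.0605 to 0.097, GARS -0.0532 to 0.0069, NARS -0.0372 to 0.0127 and YARS -0.0061 to 0.029. Leaving out 1 library, for the SUDS3 against PHF12 siRNA: PPP1R15A -0.0828 to 0.0757, ASNS -0.1123 to 0.0868, PSPH -0.0178 to 0.1055, CTH -0.0277 to 0.1115, SLC38A1 -0.029 to 0.0298, SLC1A4 -0.0507 to 0.0043, SARS -0.0135 to 0.0041 and IARS -0.03 to 0.008. Depth limits ASNS, whose lowest count of 116 would be 4 times fewer fragments if 1 fragment is worth 4 counts. With 3 libraries per group and 1 siRNA per target, changes of the size seen here for most genes rest on small spreads between libraries.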
